A study of Homo sapiens with 6 samples.

Results

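The transcripts of 47 genes of DNA replication and S phase were examined in LX-2 cells after silencing of OGT, which encodes the transferase for O-GlcNAc, a sugar mark on many intracellular proteins. The genes were chosen by name, and all 47 were found among the 16907 gene symbols of the count files. They and the other gene lists below were chosen with earlier results of these data known. LX-2 is an established human line of hepatic stellate origin, a cell type that turns into matrix-producing myofibroblasts when liver is injured. It was grown with fetal bovine serum and transfected at 20 nM for 72 h, either with a control siRNA (siControl, 3 libraries) or with an siRNA against OGT (siOGT, 3 libraries). All libraries thus come from a single line cultured on serum and exposed to a transfection reagent, and untransfected cells were not analysed here. Per the study's methods the control and the OGT siRNA came from different makers, and the effect of silencing OGT cannot be told apart from other differences between these siRNAs.

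Chromosomes are copied once in each cell cycle. Before S phase the origin recognition complex, CDC6 and CDT1 load rings of MCM2-7 helicase onto DNA. At the start of S phase CDC45 and the GINS complex join each ring to form the active helicase. DNA polymerase alpha with primase then starts new strands, which polymerases epsilon and delta extend with the help of the sliding clamp PCNA and its loader RFC. FEN1 and LIG1 finish the lagging strand, whereas ribonucleotide reductase, TYMS and TK1 supply deoxynucleotides. Many of these genes are transcribed by E2F factors as cells leave G1. Proliferation of stellate cells is part of their activation in injured liver.

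Libraries held between 25996770 and 27966801 expected counts, and levels are given as CPM, with library totals adjusted by TMM factors. OGT itself (chromosome X, 71533087 to 71575892, plus strand, hg38) had 177, 137 and 121 CPM in the siControl libraries and 39.9, 27.0 and 29.2 CPM in the siOGT libraries (log2FC -2.18 ± 0.073 SE, adjusted p = 2.712e-12). Silencing was thus seen in 3 of 3 pairs. Of the stellate cell markers, 7 of 9 had at least 1 CPM in every library, while LRAT and DES stayed below 1 CPM. The summed level of these 9 markers was between 6463 and 7818 CPM in siControl and between 5834 and 6868 CPM in siOGT, and of the 8 tested, 4 were called lower and 1 higher by the paired test described next. For each of these 8 the groups overlapped, and edgeR without pairing called none lower. Summed markers of hepatocytes lay between 3.34 and 4.48 CPM, of macrophages between 5.90 and 9.79 CPM and of endothelial cells between 3.00 and 7.86 CPM, with the groups overlapping, and ALB, PTPRC and KDR were below 1 CPM in every library. Others had more, with SERPINA1 at 3.18 to 4.44 CPM, CD14 at 4.48 to 7.78 CPM, CDH5 at 0.963 to 2.90 CPM and VWF at 0.666 to 4.01 CPM. Among the markers of these cell types VWF was called lower (log2FC -0.93, adjusted p = 0.0107). Cholangiocyte markers summed to between 88.6 and 129 CPM. Most of this sum was SOX9, with 83.1 to 122 CPM, and KRT7 had 4.66 to 8.05 CPM. KRT19 and EPCAM were below 1 CPM in every library.

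The genes were compared between siOGT and siControl with the quasi-likelihood test of edgeR, with libraries of the same replicate number treated as a pair and p-values adjusted over all 14853 genes tested. A gene is called where its adjusted p-value was at most 0.05. Of the 47 replication genes, 22 were called lower and 3 higher in siOGT, and 22 were not called. Over all genes tested, 12.7% were called lower and 12.7% higher, 25.4% in all. Within pairs, 30 replication genes were lower and 5 higher in 3 of 3 pairs, against 26.6% and 27.6% of all genes. The log2FC given for genes is the log2 ratio of siOGT to siControl from this fit, with its SE. Replication genes had a median level of 84.0 CPM against 23.2 CPM for all genes tested, and among genes within the range of levels of the replication genes 15.8% were called in each direction. The median log2 fold change was -0.18 for the replication genes and 0.01 for all genes tested. Without regard to pairing, all 3 siOGT libraries lay below all 3 siControl libraries for 22 replication genes and above them for 2, whereas this was the case for 11.8% and 12.1% of all genes. Summed over the 47 genes, the level was 5648, 5709 and 5639 CPM in siControl and 4790, 4740 and 4699 CPM in siOGT. In bulk RNA, fewer cells in S phase and less RNA per cell cannot be told apart.

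**Figure D1:**
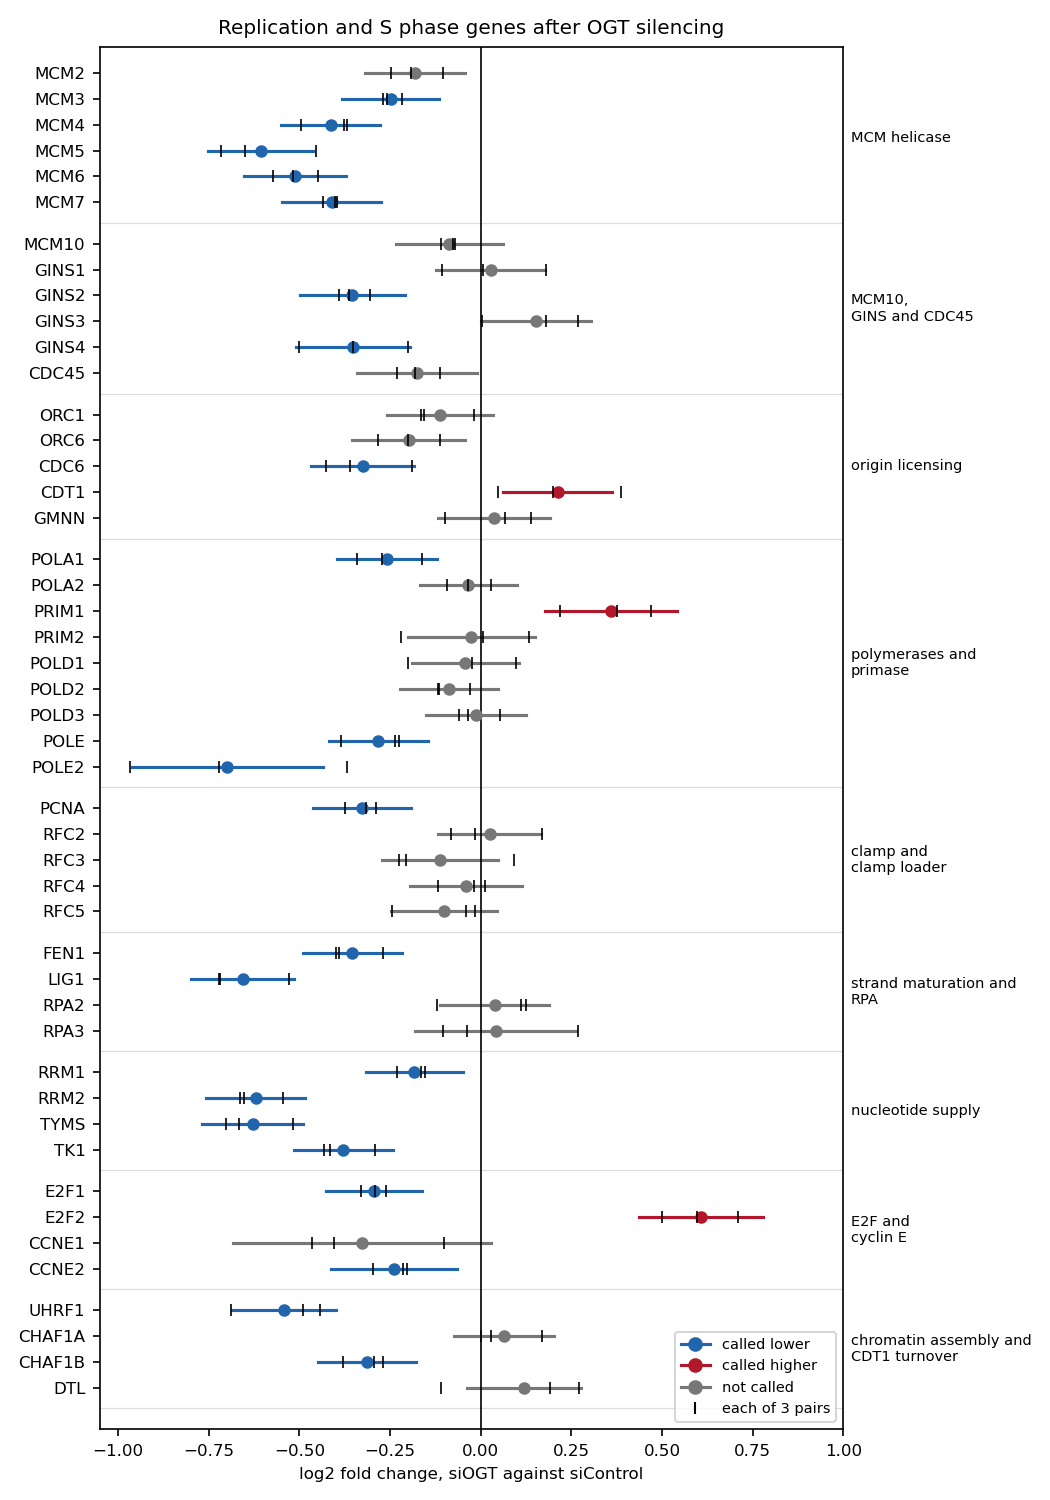
Log2 fold change of each of the 47 genes (siOGT against siControl, point) with its 95% confidence interval (line) and the log2 ratio within each of 3 pairs (black ticks), by role. The 22 genes called lower (blue) are spread over all roles and include 5 of 6 MCM subunits and 4 of 4 genes of nucleotide supply, whereas PRIM1, CDT1 and E2F2 (red) lie above 0.

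Fewer genes passed when pairs were ignored. With no replicate block, edgeR called 4 replication genes, MCM5, LIG1, RRM2 and UHRF1, all lower, against 0.397% of all genes called lower and 0.478% higher. DESeq2 with the block called 21 lower and 2 higher, where it called 10.3% and 8.9% of all genes that it tested. Without the block it called 15 lower and 1 higher, where 3.67% and 3.09% of all genes were called. With the block, edgeR was also fitted with each pair left out. Without replicate 1 it called 18 lower and 2 higher, against 6.54% and 5.94% of all genes. Without replicate 2 it called 20 lower and 4 higher, against 11.4% and 11.1% of all genes. Without replicate 3 it called 22 lower and 2 higher, against 12.4% and 11.4% of all genes.

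**Figure D2:**
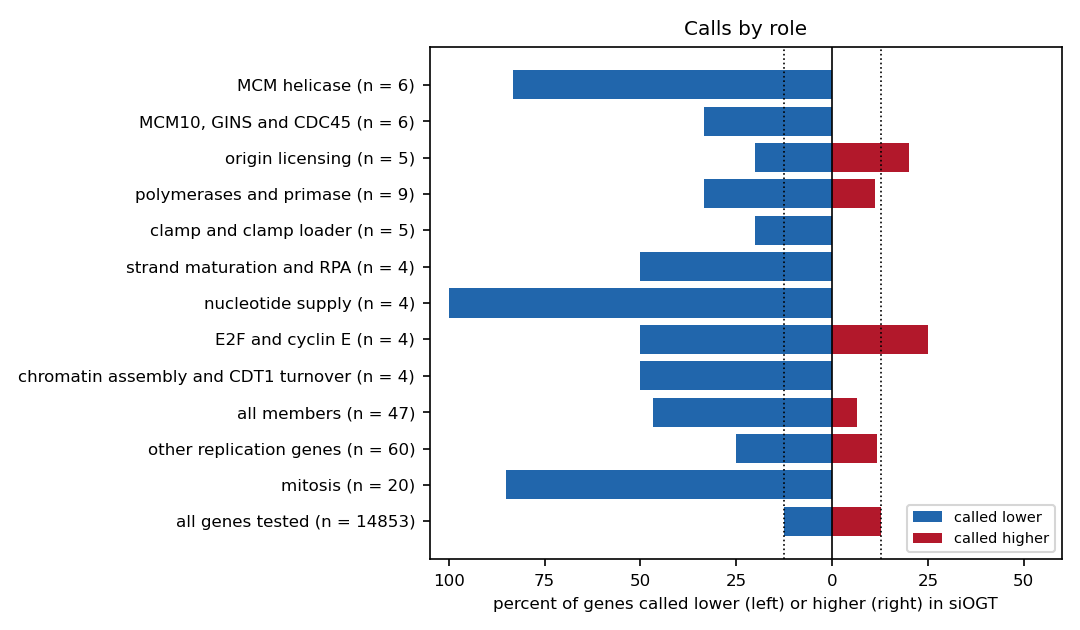
Percent of genes called lower (blue, to the left) or higher (red, to the right) in siOGT for each role of the 47 genes, for all of them, for other replication genes, for mitosis genes and for all 14853 genes tested, whose shares are marked by dotted lines. Roles hold between 4 and 9 genes, and 5 of 6 MCM helicase genes and 4 of 4 genes of nucleotide supply were called lower.

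Promoters were inspected because many of these genes are known E2F targets. The promoter table of RefSeq (GRCh38.p14), with 250 bases before and 50 after each start, held 40 of the 47 genes. MCM4, MCM5, GINS4, POLD3, RPA2, RPA3 and CCNE2 were not matched. The E2F motif was searched on both strands as TTTCCCGC, TTTCGCGC, TTTGCCGC or TTTGGCGC, and matches that overlap were each counted. At least 1 match was found for 22 of the 40 replication genes (55.0%), against 6.39% of the 11456 genes tested that have a promoter in the table and 3.31% of all 35116 promoters in it. Among genes called lower the motif was found in 13 of 18, among those not called in 7 of 19, and among the 3 called higher in E2F2 and CDT1. A match thus occurred with each kind of call. The CCAAT box, searched as CCAAT, was found in 24 of 40 replication genes against 42.8% of genes tested, and the CHR motif, searched as TTTGAA or TTCGAA, in 2 of 40 (5.00%) against 15.9%. These matches are descriptions of the letters and were not tested as sites. Stretches around the matches are printed here for 5 genes called lower, each with a single promoter in the table, and for both genes called higher that have a match, 5′ to 3′ on the strand of the gene and with the matched bases in capitals. Their positions are MCM6 chr2:135876492-135876625 (minus strand), LIG1 chr19:48170421-48170488 (minus strand), TYMS chr18:657584-657651 (plus strand), POLE2 chr14:49688212-49688249 (minus strand), E2F1 chr20:33686386-33686448 (minus strand), E2F2 chr1:23531238-23531305 (minus strand) and CDT1 chr16:88803724-88803788 (plus strand).
MCM6: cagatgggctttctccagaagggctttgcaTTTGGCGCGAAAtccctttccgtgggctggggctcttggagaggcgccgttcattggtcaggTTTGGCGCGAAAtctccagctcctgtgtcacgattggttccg
LIG1: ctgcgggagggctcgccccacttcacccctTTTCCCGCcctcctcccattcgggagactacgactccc
TYMS: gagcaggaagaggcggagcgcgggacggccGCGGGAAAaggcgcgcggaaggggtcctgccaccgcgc
POLE2: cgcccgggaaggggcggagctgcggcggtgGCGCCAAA
E2F1: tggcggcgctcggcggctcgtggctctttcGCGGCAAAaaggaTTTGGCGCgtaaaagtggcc
E2F2: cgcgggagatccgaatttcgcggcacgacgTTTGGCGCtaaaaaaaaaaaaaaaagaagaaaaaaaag
CDT1: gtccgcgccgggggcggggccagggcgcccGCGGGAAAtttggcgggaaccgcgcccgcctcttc
In MCM6 the same run of capitals occurs at 2 places, each with overlapping matches on both strands. The letters matched in E2F2 also occur in E2F1 and MCM6 and, on the opposite strand, in POLE2. Those matched in CDT1 also occur in TYMS.

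**Figure D3:**
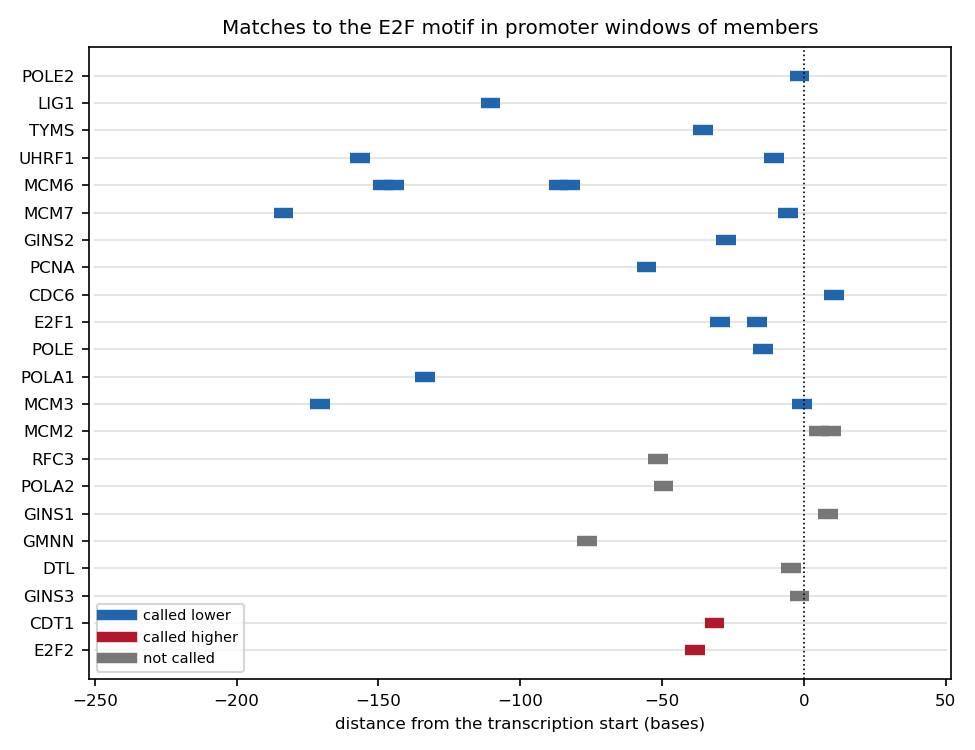
Position of each match to the E2F motif in the promoter windows of the 22 replication genes that have one, in bases from the transcription start (dotted line), with genes ordered from the lowest to the highest log2 fold change and coloured by call. Matches begin between 187 bases before and 7 bases after a start, and both genes called higher have theirs within 42 bases of it.

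The MCM2-7 ring is the motor of the replicative helicase. All 6 subunits were lower in siOGT in 3 of 3 pairs, and 5 were called lower, against 26.6% and 12.7% of all genes. MCM5 (chromosome 22, 35400134 to 35425431, plus strand) had 239, 262 and 261 CPM in the siControl libraries and 145, 191 and 166 CPM in the siOGT libraries. Every siOGT library lay below every siControl library (log2FC -0.61 ± 0.069 SE, adjusted p = 1.029e-05). MCM6 (chromosome 2, 135839626 to 135876443, minus strand) had 68.2, 79.9 and 72.9 CPM in the siControl libraries and 47.6, 58.6 and 49.0 CPM in the siOGT libraries, and these did not overlap either (log2FC -0.51 ± 0.067 SE, adjusted p = 3.501e-05). MCM4 and MCM7 followed with log2FC of -0.41 (adjusted p = 2.020e-04) and -0.41 (adjusted p = 2.016e-04). MCM3 changed least among the called subunits, by -0.25 (adjusted p = 0.00811), and lost its call without replicate 1 (0.111). MCM2 had 332, 289 and 298 CPM in the siControl libraries and 309.6, 253 and 251 CPM in the siOGT libraries. Its groups overlapped, and its log2FC of -0.18 (adjusted p = 0.0508) just missed the threshold with edgeR, whereas DESeq2 with the block called it (0.0398). In edgeR without the replicate block MCM5 kept its call (0.0472), while the other called subunits had adjusted p from 0.0546 to 0.157. DESeq2 without the block called MCM4 (0.0196), MCM5 (1.298e-04), MCM6 (0.00262) and MCM7 (5.968e-04) but not MCM3 (0.0531).

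Levels per length show how unequal the transcripts of the subunits were. The protein subunits enter the ring in equal numbers, and their amounts were not measured here. Divided by the length of the MANE Select transcript, MCM7 was the most abundant, with 203 ± 9.98 in siControl and 152 ± 5.46 in siOGT CPM per kb (SD, n = 3 each). MCM6 was the least abundant, with 19.6 ± 1.57 in siControl and 13.8 ± 1.58 in siOGT CPM per kb. MCM2, MCM3, MCM4 and MCM5 lay between 73.4 and 89.2 CPM per kb in siControl, where the libraries of MCM4 overlapped with those of MCM2 and MCM3. In siOGT the transcripts of these subunits spread out, from 48.5 CPM per kb for MCM5 to 79.0 for MCM2. MCM7 overlaps AP4M1 on the opposite strand over 7.90% of its exonic bases, and the counting used strand.

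**Figure D4:**
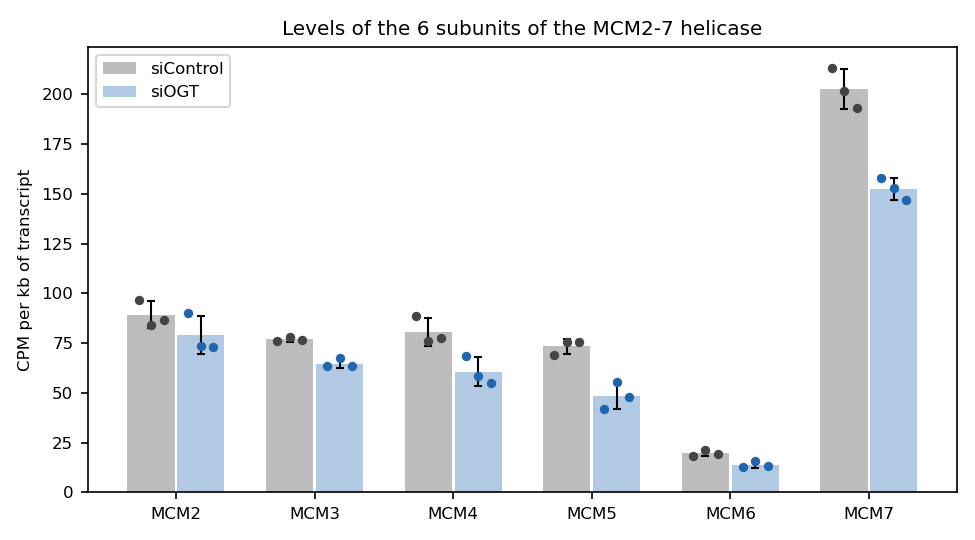
Level of the 6 MCM2-7 subunits in CPM per kb of MANE Select transcript in siControl (grey) and siOGT (blue), with bars for the mean, lines for the SD and points for the 3 libraries. The siOGT points lie below all siControl points for every subunit except MCM2, and MCM7 is highest and MCM6 lowest in both groups.

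CDC45 and the 4 GINS subunits turn the loaded ring into an active helicase, and MCM10 takes part in this step. Of these 6 genes, GINS2 and GINS4 were called lower and none higher, against 12.7% of all genes in each direction. GINS2 had 46.9, 53.1 and 50.1 CPM in the siControl libraries and 35.8, 41.3 and 40.5 CPM in the siOGT libraries (log2FC -0.35 ± 0.069 SE, adjusted p = 0.00123). GINS4 had 43.5, 52.6 and 46.9 CPM in the siControl libraries and 37.8, 37.2 and 36.8 CPM in the siOGT libraries (log2FC -0.35 ± 0.075 SE, adjusted p = 0.00234). For both genes the groups did not overlap. GINS3, a subunit of the same complex, was instead higher in 3 of 3 pairs, with 49.1, 52.2 and 53.7 CPM in siControl and 59.2, 52.4 and 60.9 CPM in siOGT, but was not called (log2FC 0.15, adjusted p = 0.131). GINS1 had a log2FC of 0.03 (adjusted p = 0.824) and MCM10 of -0.09 (adjusted p = 0.406). CDC45 was lower in 3 of 3 pairs with no overlap between groups, but its log2FC of -0.18 (adjusted p = 0.115) was not called. Without the block GINS2 and GINS4 had adjusted p of 0.120 and 0.118 in edgeR and of 0.0386 and 0.0389 in DESeq2.

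Licensing genes differed in direction. CDC6, which loads the ring together with ORC, had 101, 99.8 and 104 CPM in the siControl libraries and 88.6, 77.7 and 77.2 CPM in the siOGT libraries (log2FC -0.32 ± 0.068 SE, adjusted p = 0.00200). It was thus lower in all siOGT libraries. CDT1, its partner in loading, was higher in 3 of 3 pairs, with 110.5, 122 and 131 CPM in the siControl libraries and 145, 126 and 149.97 CPM in the siOGT libraries. Its groups overlapped, and of the 3 genes called higher it had the largest adjusted p (log2FC 0.21 ± 0.071 SE, adjusted p = 0.0358). It was lost without replicate 1 (0.456), without replicate 3 (0.0543) and with DESeq2 with the block (0.0627). GMNN, which encodes the inhibitor of CDT1, had a log2FC of 0.04 (adjusted p = 0.763). The origin recognition subunits ORC1 and ORC6 had log2FC of -0.11 (adjusted p = 0.257) and -0.20 (adjusted p = 0.0588), both lower in 3 of 3 pairs and neither called. Counts of ORC6 were not whole in 4 libraries, since RSEM had divided some of its reads. Without the block the adjusted p were 0.118 for CDC6 and 0.308 for CDT1 in edgeR, and 0.0344 and 0.297 in DESeq2.

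Of polymerase epsilon, POLE and POLE2 were called lower, whereas POLD1, POLD2 and POLD3 of polymerase delta were not called. POLE2, an accessory subunit, had the lowest log2FC of the 47 genes with all pairs, while without replicate 1 or replicate 2 that of LIG1 was lower. Its level was 14.0, 11.5 and 8.63 CPM in the siControl libraries and 7.11, 6.95 and 6.68 CPM in the siOGT libraries (log2FC -0.70 ± 0.125 SE, adjusted p = 6.220e-04). The siControl libraries differed widely from each other, whereas the siOGT libraries were close together. POLE, the catalytic subunit, had 228, 160.2 and 171 CPM in the siControl libraries and 194, 137 and 131 CPM in the siOGT libraries. Its groups overlapped, the first replicate being high in both, and it was lower within 3 of 3 pairs (log2FC -0.28 ± 0.065 SE, adjusted p = 0.00427). The genes POLD1, POLD2 and POLD3 had log2FC of -0.04, -0.09 and -0.01, with 95% confidence intervals of -0.19 to 0.11, -0.22 to 0.05 and -0.15 to 0.12 (adjusted p 0.716, 0.352 and 0.906). Without the block the adjusted p of POLE2 and POLE were 0.0970 and 0.427 in edgeR and 0.0174 and 0.391 in DESeq2. Small subunits of both polymerases, taken from the list of other replication genes after their values were seen, differed from these. POLE3 was called higher (log2FC 0.23, adjusted p = 0.0322), POLE4 was not called (log2FC -0.13, adjusted p = 0.260) and POLD4 was called lower (log2FC -0.25, adjusted p = 0.0337). Without the block neither edgeR nor DESeq2 called POLE3 (0.259 and 0.221) or POLD4 (0.321 and 0.322).

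Polymerase alpha and primase form a single complex of 4 subunits, all of which are in the list, and they differed in direction. POLA1, the catalytic subunit, was lower with 112, 116 and 114 CPM in the siControl libraries and 88.6, 104 and 94.7 CPM in the siOGT libraries (log2FC -0.26 ± 0.065 SE, adjusted p = 0.00787). This call was lost without replicate 1 (0.142). PRIM1, the catalytic subunit of primase, was higher with 16.3, 16.8 and 18.6 CPM in the siControl libraries and 19.0, 21.8 and 25.8 CPM in the siOGT libraries (log2FC 0.36 ± 0.087 SE, adjusted p = 0.00566). Its groups did not overlap and it kept its call with each replicate left out. PRIM1 shares 4.2% of its exonic bases with NACA on the same strand, so reads there cannot be assigned from position alone. The counts of PRIM1 were whole in every library. The partner subunits POLA2 and PRIM2 had log2FC of -0.03 (adjusted p = 0.752) and -0.03 (adjusted p = 0.858), and their counts were not whole in 5 and 2 libraries. Without the block the adjusted p were 0.190 for POLA1 and 0.203 for PRIM1 in edgeR, and 0.111 and 0.152 in DESeq2.

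The sliding clamp was lower, while its loader was not called. PCNA (chromosome 20, 5114953 to 5126626, minus strand), the ring that tethers polymerases to DNA, had 272, 343 and 315 CPM in the siControl libraries and 218, 265 and 258 CPM in the siOGT libraries. Per length it was the most abundant of the 47 genes in siControl, with 243 ± 28.1 in siControl and 194 ± 19.5 in siOGT CPM per kb (SD, n = 3 each). The groups did not overlap and the gene was lower in 3 of 3 pairs (log2FC -0.33 ± 0.064 SE, adjusted p = 0.00133). Without the block its adjusted p was 0.182 in edgeR and 0.0855 in DESeq2. RFC3, the loader gene with the smallest p-value, had 54.7, 49.5 and 43.96 CPM in the siControl libraries and 47.4, 42.4 and 46.9 CPM in the siOGT libraries. Its log2FC was -0.11 (adjusted p = 0.308), lower in 2 of 3 pairs, and it was called without replicate 3 (0.0382). RFC2, RFC4 and RFC5 had log2FC of 0.02, -0.04 and -0.10, with 95% confidence intervals of -0.12 to 0.17, -0.20 to 0.11 and -0.25 to 0.04 (adjusted p 0.832, 0.740 and 0.312). Counts of RFC2 were not whole in any of the 6 libraries.

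Both genes that complete the lagging strand were lower. LIG1 (chromosome 19, 48115445 to 48170603, minus strand), which seals nicks between Okazaki fragments, had 96.9, 108 and 103 CPM in the siControl libraries and 58.8, 75.02 and 62.2 CPM in the siOGT libraries. No siOGT library reached the lowest siControl library (log2FC -0.66 ± 0.067 SE, adjusted p = 4.049e-06). It was called without the block by edgeR (0.0433) and by DESeq2 (3.835e-05). FEN1, which trims the flaps ahead of the ligase, had 171, 191 and 189.6 CPM in the siControl libraries and 141, 145 and 145 CPM in the siOGT libraries (log2FC -0.35 ± 0.065 SE, adjusted p = 7.196e-04). Without the block edgeR did not call it (0.0842), whereas DESeq2 did (0.00557). The genes of single-stranded DNA binding, RPA2 and RPA3, had log2FC of 0.04 (adjusted p = 0.742) and 0.04 (adjusted p = 0.817), with 95% confidence intervals of -0.11 to 0.19 and -0.18 to 0.26.

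All 4 genes of nucleotide supply were called lower with no overlap between groups. Over all genes tested, 12.7% were called lower and 11.8% had all siOGT libraries below all siControl libraries. RRM2 (chromosome 2, 10120698 to 10211725, plus strand), the small subunit of ribonucleotide reductase, which is known to limit the activity of the enzyme outside S phase, had 162, 157 and 137 CPM in the siControl libraries and 102, 99.7 and 93.7 CPM in the siOGT libraries (log2FC -0.62 ± 0.064 SE, adjusted p = 4.314e-06). TYMS (chromosome 18, 657653 to 673578, plus strand), which makes thymidylate, had 216, 273 and 239 CPM in the siControl libraries and 133, 191 and 151 CPM in the siOGT libraries (log2FC -0.63 ± 0.066 SE, adjusted p = 5.050e-06). TK1, the salvage kinase for thymidine, went from 198 ± 6.25 to 152 ± 5.61 CPM as mean ± SD of 3 libraries (log2FC -0.38 ± 0.065 SE, adjusted p = 4.242e-04). These 3 genes were lower in 3 of 3 pairs and kept their calls with each replicate left out. RRM1, the large reductase subunit, changed less, with a log2FC of -0.18 (adjusted p = 0.0420), and lost its call without replicate 1 (0.297), without replicate 2 (0.0968) and in the blocked DESeq2 fit (0.0612). Ignoring pairs, edgeR called RRM2 (0.0375) but not TYMS (0.0712), TK1 (0.0633) or RRM1 (0.276), and DESeq2 called RRM2 (4.956e-06), TYMS (0.00197) and TK1 (0.00138) but not RRM1 (0.233). Counts of RRM2 were not whole in 3 libraries, and TYMS overlaps ENOSF1 on the opposite strand over 39.9% of its exonic bases.

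The regulators of S phase entry did not share a direction. E2F1 (chromosome 20, 33675477 to 33686385, minus strand), an activator of replication genes, had 159, 184 and 189 CPM in the siControl libraries and 130.1, 154 and 150.2 CPM in the siOGT libraries (log2FC -0.29 ± 0.063 SE, adjusted p = 0.00255). E2F2 (chromosome 1, 23506438 to 23531233, minus strand), an activator of the same family, had 20.5, 17.0 and 19.4 CPM in the siControl libraries and 33.7, 24.0 and 29.4 CPM in the siOGT libraries (log2FC 0.61 ± 0.081 SE, adjusted p = 4.451e-05), the highest log2 fold change of the 47 genes. In both cases the groups did not overlap, E2F1 being lower and E2F2 higher in 3 of 3 pairs. E2F2 was much less abundant, with 3.65 ± 0.350 in siControl and 5.58 ± 0.927 in siOGT CPM per kb against 65.9 ± 5.91 in siControl and 53.8 ± 4.72 in siOGT CPM per kb for E2F1 (SD, n = 3 each). Both calls held with each replicate left out. Without the block edgeR called neither (0.187 and 0.0754), and DESeq2 called E2F2 (0.00685) but not E2F1 (0.1002). CCNE2, a cyclin that activates CDK2 at the start of S phase, was called lower (log2FC -0.24, adjusted p = 0.0423), but not when any replicate was left out (0.145, 0.0943 and 0.108) nor with DESeq2 with the block (0.177) or without the block with edgeR (0.354) or DESeq2 (0.376). CCNE1, its paralog, had the lowest level per kb of the 47 genes in siControl and had 4.11, 4.99 and 4.08 CPM in the siControl libraries and 2.96, 3.75 and 3.80 CPM in the siOGT libraries. Its groups did not overlap, yet its log2FC of -0.33 (adjusted p = 0.172) had a 95% confidence interval from -0.68 to 0.03 and was not called. CCNE2 overlaps INTS8 on the opposite strand over 37.0% of its exonic bases.

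UHRF1 (chromosome 19, 4903080 to 4962154, plus strand), which brings DNMT1 to newly copied DNA, had 176, 192 and 207 CPM in the siControl libraries and 126, 141 and 128 CPM in the siOGT libraries. The groups did not overlap (log2FC -0.54 ± 0.068 SE, adjusted p = 2.563e-05). Without the block edgeR (0.0450) and DESeq2 (6.182e-05) called it as well. CHAF1B, a subunit of the histone chaperone CAF-1, had 128, 123 and 116 CPM in the siControl libraries and 105, 94.5 and 96.1 CPM in the siOGT libraries (log2FC -0.31 ± 0.064 SE, adjusted p = 0.00168). Without the block edgeR did not call it (0.117), whereas DESeq2 did (0.0338). CHAF1A, the large subunit of CAF-1, had a log2FC of 0.07 (adjusted p = 0.508). DTL, the substrate receptor through which CDT1 is degraded in S phase, was higher in 2 of 3 pairs and not called (0.12, adjusted p = 0.264), but was called higher without replicate 2 (0.0427).

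**Figure D5:**
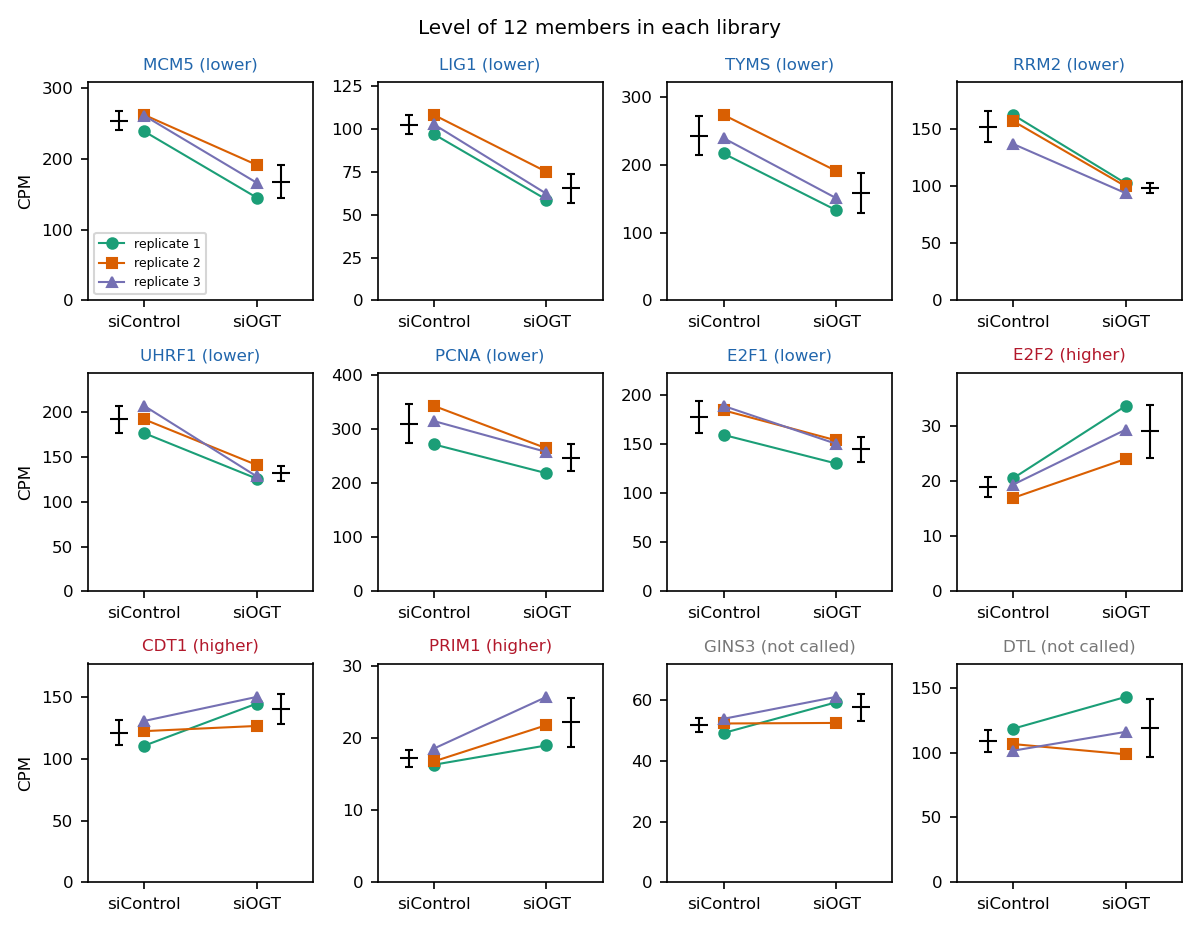
Level in CPM of genes from each direction of change in every library, with lines joining siControl and siOGT libraries of the same replicate number and black marks for the mean and SD of each group. For MCM5, LIG1, TYMS, RRM2, UHRF1, PCNA and E2F1 all siOGT points lie below all siControl points, for E2F2 and PRIM1 they lie above, and for CDT1, GINS3 and DTL they overlap.

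Ratios between 9 pairs of partner genes were computed within libraries, per kb of transcript. The pairs were picked with their values known, and the ratios are descriptions. For 5 pairs the groups did not overlap. The ratio of E2F2 to E2F1 was 0.0668, 0.0477 and 0.0532 in siControl and 0.134, 0.0810 and 0.101 in siOGT. The ratio of PRIM1 to POLA1 was 0.562, 0.559 and 0.628 in siControl and 0.828, 0.811 and 1.05 in siOGT. The first gene of each pair thus gained on the second in siOGT. The ratio of RRM2 to RRM1 was 1.11, 1.15 and 1.018 in siControl and 0.826, 0.819 and 0.777 in siOGT, that of GINS2 to GINS3 was 0.8005, 0.851 and 0.780 in siControl and 0.506, 0.660 and 0.556 in siOGT and that of LIG1 to FEN1 was 0.366, 0.365 and 0.349 in siControl and 0.268, 0.334 and 0.278 in siOGT. These 3 ratios were lower in siOGT. For the other 4 the groups overlapped. The ratio of MCM5 to MCM2 was 0.713, 0.901 and 0.869 in siControl and 0.466, 0.752 and 0.656 in siOGT, and that of CHAF1B to CHAF1A was 0.652, 0.549 and 0.462 in siControl and 0.473, 0.415 and 0.383 in siOGT, both lower within 3 of 3 pairs of libraries. The ratio of POLE2 to POLE was 0.283, 0.332 and 0.233 in siControl and 0.170, 0.234 and 0.235 in siOGT, and that of CDT1 to its inhibitor GMNN was 1.28, 1.48 and 1.52 in siControl and 1.79, 1.46 and 1.59 in siOGT, each with pairs of libraries in both directions.

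Other genes of DNA replication were taken from a list of 60, all of which were tested. Of these, 15 were called lower (25%) and 7 higher (11.7%), against 12.7% of all genes in each direction. The share called higher was thus near that of all genes. Their median log2FC was -0.08. Nucleotide supply and chromatin replication had the larger shares of lower calls, with 3 of 7 and 4 of 7 genes and none called higher. DTYMK, a kinase of thymidine nucleotide synthesis, had a log2FC of -0.40 (adjusted p = 9.042e-04). NASP, a histone chaperone, and HELLS, a chromatin remodeler, had log2FC of -0.36 (adjusted p = 5.966e-04) and -0.34 (adjusted p = 0.00254). Of 13 genes of origin firing, 2 were called lower (15.4%) and 3 higher (23.1%), against 12.7% of all genes in each direction. The share called lower was thus near that of all genes. RECQL4, which takes part in helicase assembly, was lower (log2FC -0.33, adjusted p = 9.833e-04), while ORC5, a subunit of the origin recognition complex, was higher (log2FC 0.36, adjusted p = 0.00207). The groups of ORC5 overlapped, and without the block neither edgeR (0.201) nor DESeq2 (0.145) called it. Those of RECQL4 did not overlap, and without the block DESeq2 called it (0.00928) but edgeR did not (0.0919).

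Among fork and lagging strand factors 3 of 18 were called lower (16.7%) and 1 higher (5.56%), against 12.7% of all genes in each direction. The share called lower was thus near that of all genes. CLSPN, a checkpoint mediator at the fork, was lower (log2FC -0.32, adjusted p = 0.00143), as was CHTF18, part of an alternative clamp loader (log2FC -0.33, adjusted p = 0.0157), which lost its call without replicate 3 (0.154). Other regulators of S phase had 3 of 15 genes called lower (20%) and 3 higher (20%), against the same 12.7% of all genes. CDK2, the kinase that cyclin E activates, had 130.1, 149.7 and 129 CPM in the siControl libraries and 93.1, 103 and 95.2 CPM in the siOGT libraries (log2FC -0.49 ± 0.064 SE, adjusted p = 3.569e-05). E2F7, a repressor of E2F targets, had 149, 123 and 165 CPM in the siControl libraries and 226, 179.8 and 209 CPM in the siOGT libraries (log2FC 0.50 ± 0.069 SE, adjusted p = 6.400e-05). For both the groups did not overlap. Without the replicate block none of the 60 genes was called lower by edgeR, which then had adjusted p-values of 0.0502 for CDK2 and 0.0965 for E2F7. At this setting DESeq2 called 7 of them lower and 1 higher, against 3.67% and 3.09% of all genes. CDK2 was among those called lower (4.571e-04), and E2F7 was the gene called higher (0.0137).

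Genes of mitosis, a later phase of the cycle, served for comparison. Of 20 such genes, 17 were called lower and 0 higher, against 12.7% of all genes in each direction, and the median log2FC was -0.29 against -0.18 for the 47 replication genes. KIF20A, a kinesin of late mitosis, and PTTG1, the securin that restrains separase, had log2FC of -0.65 (adjusted p = 5.050e-06) and -0.53 (adjusted p = 2.515e-05). The count of 17 fell to 8 without replicate 1, where 6.54% of all genes were called lower. Without the replicate block edgeR called 1 and DESeq2 9 lower, against 0.397% and 3.67% of all genes. Of the 17 mitosis genes with a promoter in the RefSeq table, 12 held a CHR motif (70.6%) and 1 an E2F motif (5.88%), where the replication genes held 5.00% and 55.0%. Of these 20 genes edgeR called 0 higher, as did DESeq2 with and without the block, and 0 had a log2FC above 0 with an unadjusted p under 0.05. Whether the lists differ in their response was not tested.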

How the data were processed

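RNA-seq had been performed on 3 siControl and 3 siOGT libraries of LX-2 cells, grouped and numbered as the labels give them. According to the methods and processing notes, the authors enriched polyadenylated RNA, sequenced it paired-end, aligned reads to hg38 with Bowtie2 (2.3.5.1) and counted them per gene and strand with RSEM (1.3.1). The deposited values are expected counts, in which a read matching several genes is divided between them. A further deposited table, with the authors' own fold changes and p-values, was not used. Expected counts were rounded. A total of at least 10 was required, leaving 14853 of 16907 genes. The other genes held 0.00448% of counts. TMM scaling, the quasi-likelihood test of edgeR 4.0.16 (R 4.3.3) blocking on replicate number, and Benjamini-Hochberg adjustment over all genes were used. SE and 95% confidence intervals were derived from the F statistic, and log2 ratios within pairs used a prior count of 2. DESeq2 1.42.0, other scalings and filters, and fits without a replicate or the block served as alternatives.

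The study's methods pair samples of a replicate, and deviations from group means over 12373 genes correlated between same-numbered libraries by 0.332 to 0.688, against at most 0.054 between others. Libraries within a group differed by more than sampling (chi-square per degree of freedom at least 20.3). The methods describe the replicates as independent experiments. Genes and lists were chosen with earlier results of these data known. Per-library values are given for the 2 genes of each role with the smallest p-value, for PCNA, and for genes called higher, and the fold change for each gene not called. Of each other list the 2 genes with the smallest p-value are named, except 1 gene that is not reported here. GINS3, MCM2, POLA1, CCNE1, CDK2 and E2F7 were given per-library values after their values were seen. Coordinates and transcript lengths are from GENCODE 44 on hg38, promoters from RefSeq (GRCh38.p14). These gene models may differ from those used for counting, so levels per kb are approximate. Estimated counts were not whole in at least 1 library for 10 of the 47 genes, and on the same strand PRIM1, FEN1 and CHAF1B overlap exons of other genes.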

Additional observations from a re-analysis of the deposited data

How the results depend on the processing

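Over the whole transcriptome 3766 genes were called. The count was 130 with edgeR without the replicate block, 2415 with DESeq2 with the block, 849 with DESeq2 without it and 2083 with the threshold at 0.01. Without the replicate block edgeR called 4 replication genes lower and 0 higher, 0 of the other replication genes lower and 1 mitosis gene lower, where 22, 3, 15 and 17 were called with it. At an unadjusted p under 0.05 that fit gave 2 replication genes higher and 12 other replication genes lower, and DESeq2 with the block called 2 and 14. DESeq2 without the replicate block called 1 replication gene higher, 7 other replication genes lower and 9 mitosis genes lower. Of all genes it called 3.67% lower and 3.09% higher. Without 1 of the pairs, there were 1803 to 3439 genes called, 18 to 22 replication genes lower and 2 to 4 higher, 10 to 16 other replication genes lower and 8 to 16 mitosis genes lower, and a median log2 fold change of the replication genes from -0.22 to -0.20. Median-ratio size factors and filterByExpr changed no call of the 47 genes, and library totals alone ended those of RRM1 and CCNE2. With no filter on low counts MCM2 was called as well. No called gene changed sign. Among genes not called, POLD3 had a log2FC of 0.0085 under library totals. Without 1 of the pairs, 8 such genes crossed 0, the lowest and highest values being -0.055 and 0.091 for GINS1, -0.022 and 0.10 for GMNN, -0.11 and 0.068 for PRIM2, -0.11 and 0.031 for POLD1, -0.049 and 0.0068 for POLD3, -0.054 and 0.075 for RFC2, -0.0069 and 0.11 for RPA2 and -0.079 and 0.12 for RPA3. OGT kept its call in all settings run. The cause of these changes was not tested. Counting precision was lowest for CCNE1, RPA3 and POLE2, with mean levels of 4.40, 12.1 and 11.4 CPM in siControl.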
